A study of Homo sapiens with 4 samples.

Results

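Angiogenic factors and vasoactive peptides were examined as 10 named genes, *VEGFA*, *VEGFB*, *VEGFC*, *PGF*, *FLT1*, *ADM*, *EDN1*, *ANGPT2*, *EPO* and *STC2*, of 58288 genes in the expression tables. They were chosen by gene symbol, and HIF1α peaks were assigned to them by gene. The samples were HK2 cells, 1 immortalized human line of proximal tubule origin, treated with FG-4592 at 50 μM for 6 h according to the methods of the study. FG-4592 blocks prolyl hydroxylases, enzymes whose activity leads to the breakdown of HIFα when oxygen is present. HIF1α ChIP-seq and RNA-seq each had 2 replicates, and all 4 samples carried the treatment. Untreated cells were not analysed here, so every level below is a level under FG-4592 and no induction was measured.

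In many tissues, cells short of oxygen stabilize HIFα proteins, which pair with ARNT and bind DNA at a short hypoxia response core. Among the classical target genes are secreted factors that act on blood vessels. VEGF ligands signal through receptor tyrosine kinases on endothelium, adrenomedullin relaxes vessels, endothelin constricts them, and erythropoietin, made in the adult kidney by interstitial cells, drives red cell formation.

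The label of the cells was compared with marker genes. Of 10 proximal tubule markers, 3 reached a mean FPKM of 1 (fragments per kilobase of transcript, scaled to the size of the library), and *PAX8* was the most abundant at 121 and 114 FPKM in replicates 1 and 2. The others were *GGT1*, at 62.3 and 58.5 FPKM, and *SLC5A2*, at 2.59 and 1.70 FPKM. The list summed to 186 and 174 FPKM. *LRP2* and *HNF4A*, which define the mature tubule, were listed at 0 in both libraries, and *CUBN* stood at 0.0716 and 0.0469 FPKM. Of 4 epithelial markers, 3 reached 1 FPKM, led by the keratin gene *KRT8* at 166 and 162 FPKM, with list sums of 253 and 256 FPKM. Of 10 endothelial markers, 1 reached a mean of 1 FPKM, *ESAM*, at 1.24 and 0.892 FPKM, and the list summed to 2.75 and 2.17 FPKM, with *PECAM1*, *EMCN*, *TEK* and *KDR* listed at 0. Of 6 fibroblast or pericyte markers, 3 reached 1 FPKM, led by *COL1A1* at 38.7 FPKM in each library, with list sums of 46.8 and 46.2 FPKM, and the leukocyte gene *PTPRC* was listed at 0. The proximal tubule markers were thus mixed, with 3 above 1 FPKM and the rest under 1 FPKM or listed at 0, and HK2 is used below as the name of the line.

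The sequences below are those that bear on the binding data. Capitals mark the hypoxia response core, ACGTG or GCGTG on either strand (CACGT or CACGC when read from the other strand). Here and below, matches that share bases were each counted, so the stretch CACGTG counts once for each strand. The first is 300 bases of a replicate 1 peak beyond the end of *VEGFA*, nearer to the start of another gene (GRCh37 chr6:43766642-43766941, plus strand, intergenic), with 3 cores near its centre. The second is the part of the replicate 1 peak in *VEGFB* that lies outside the UTR (chr11:64002306-64002595, plus strand), from the coding part of the first exon into the first intron. The third is 300 bases common to the peaks of both replicates between *ADM* and *AMPD3* (chr11:10329496-10329795, plus strand), with no annotated UTR. The fourth is 30 bases around the core in the peak of both replicates in the 3′ UTR of *STC2* (chr5:172742690-172742719, minus strand).
VEGFA downstream peak: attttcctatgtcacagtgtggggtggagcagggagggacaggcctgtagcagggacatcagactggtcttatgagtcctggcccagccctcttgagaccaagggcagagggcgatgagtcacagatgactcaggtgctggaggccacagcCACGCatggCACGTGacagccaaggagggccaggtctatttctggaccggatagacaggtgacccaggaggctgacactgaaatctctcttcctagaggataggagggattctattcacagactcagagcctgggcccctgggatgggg
VEGFB intragenic peak: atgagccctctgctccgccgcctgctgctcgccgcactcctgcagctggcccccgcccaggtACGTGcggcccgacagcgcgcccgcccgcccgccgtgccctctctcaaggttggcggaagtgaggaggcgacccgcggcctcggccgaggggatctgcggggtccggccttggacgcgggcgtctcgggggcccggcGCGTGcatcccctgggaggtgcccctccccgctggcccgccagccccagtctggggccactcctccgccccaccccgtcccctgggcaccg
ADM downstream peak: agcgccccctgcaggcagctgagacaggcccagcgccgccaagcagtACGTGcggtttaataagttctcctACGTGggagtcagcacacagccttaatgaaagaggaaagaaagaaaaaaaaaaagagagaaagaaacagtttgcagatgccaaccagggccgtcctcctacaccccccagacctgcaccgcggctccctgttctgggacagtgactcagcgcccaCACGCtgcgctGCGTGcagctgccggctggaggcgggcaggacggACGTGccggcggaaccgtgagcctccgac
STC2 3′ UTR site: caccgcggcaggCACGTtgactgttttact

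The expressed members were VEGF ligands, adrenomedullin, endothelin and stanniocalcin genes, with *VEGFA* at the top of the list. A mean of 1 FPKM or more was reached by 7 of the 10 members, against 23.1% of all genes in the tables. Their levels, summed over transcripts, spanned from *PGF* near 2 FPKM to *VEGFA* near 87 FPKM, and the median over all 10 was 8.65 FPKM. For scale, the median of the 13467 genes with a mean of 1 FPKM or more was 9.25 FPKM. The members were named with their expression known, so their share above 1 FPKM is a description of the list.

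*VEGFA* (ENSG00000112715.21), the main growth factor for endothelial cells, stood at 87.4 FPKM in replicate 1 and 86.7 FPKM in replicate 2, a mean of 87.0 ± 0.462 (SD, n = 2). *VEGFC* (ENSG00000150630.3), which acts mainly on lymphatic vessels, stood at 38.7 and 36.4 FPKM, a mean of 37.5 ± 1.63. *VEGFB* (ENSG00000173511.9), a ligand of the FLT1 receptor, stood at 14.5 and 14.4 FPKM. Both libraries thus ordered these ligands alike. *PGF* (ENSG00000119630.13), placental growth factor, was far lower, at 2.02 and 1.75 FPKM. The receptor gene *FLT1* (ENSG00000102755.11) was listed at 0 in both libraries in each of its 9 transcripts.

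*STC2* (ENSG00000113739.10), a secreted glycoprotein that inhibits the pappalysin proteases, stood at 35.8 and 36.7 FPKM, a mean of 36.2 ± 0.672. Its libraries overlapped with those of *VEGFC*, so these neighbours in the order were not separated, while the other neighbouring pairs down to *ANGPT2* did not overlap by summed FPKM. *ADM* (ENSG00000148926.9), the adrenomedullin gene, stood at 26.0 and 21.2 FPKM. *EDN1* (ENSG00000078401.6), which encodes endothelin 1, had 3.01 and 2.67 FPKM. *ANGPT2* (ENSG00000091879.13), a ligand of the TEK receptor and known chiefly from endothelial cells, stood at 0.0141 and 0.0489 FPKM. *EPO* (ENSG00000130427.2) was listed at 0 in both libraries. Mitochondrial genes that every cell uses, *MT-CO1* among them, were also listed at 0 in both libraries, so a value of 0 here says only how a gene is listed. In bulk RNA, fewer cells that express a gene and less RNA per cell cannot be told apart.

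**Figure D1:**
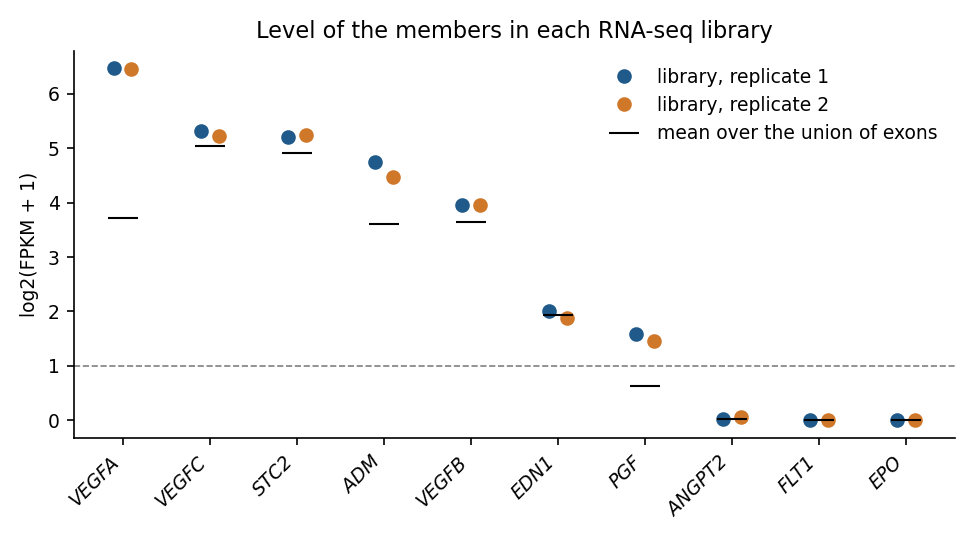
Level of the 10 members in each RNA-seq library as log2(FPKM + 1), with 1 point per library, ordered by the mean; the dashed line marks 1 FPKM. Black dashes give the mean when coverage is divided by the union of exons, and that of *VEGFA* then falls to 12.2 FPKM, below *VEGFC* and *STC2*.

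The place of *VEGFA* at the top held under some measures of level and not under another. By the largest single transcript it stayed first, at 44.2 FPKM against 37.2 for *VEGFC* and 32.8 for *STC2*. In TPM it also stayed first, at 241 against 104 and 100.2. Transcripts that overlap share bases, and *VEGFA* has 32 of them in the tables. When the bases of coverage were divided by the union of its exons, an alternative added after the data were seen, *VEGFA* came to 12.2 FPKM, *VEGFC* to 31.8 and *STC2* to 28.9. *PGF* came to 0.542 FPKM and so dropped below 1, which left 6 members at 1 FPKM or more. By its largest transcript *PGF* was also below 1, at 0.710 FPKM. The union for *VEGFA* counts 14431 bases, retained introns included. *ADM* and *VEGFB* were not separated over the union of exons, at 11.2 and 11.5 FPKM with overlapping libraries. By the largest transcript the mean of *ADM* was the lower, at 8.80 against 9.68 FPKM, but the libraries overlapped here too. ADM-201 had 5.71 and 11.9 FPKM in replicates 1 and 2, and VEGFB-201 had 9.78 and 9.58 FPKM. *EDN1*, with 1 transcript, kept its 2.84 FPKM.

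The libraries agreed closely for most members. On the log2(FPKM + 1) scale, replicate 2 minus replicate 1 was -0.01 for *VEGFA*, -0.09 for *VEGFC*, 0.04 for *STC2* and -0.28 for *ADM*. The median absolute difference was 0.09 over the 7 members with a mean of 1 FPKM or more, against 0.13 over all 13467 such genes, for which the 90th percentile was 0.39. Among the 7 members, *ADM* was the one whose libraries were farthest apart. With coverage divided by the union of exons its order turned, with 10.6 FPKM in replicate 1 and 11.8 FPKM in replicate 2.

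The transcripts of *ADM* showed where its libraries differed. ADM-201, a transcript of 1885 bases, made 22.0% of the gene's FPKM in replicate 1 and 56.2% in replicate 2. ADM-204, with 641 bases, made 32.3% in replicate 1 and was listed at 0 in replicate 2. ADM-203 was alike in both, at 34.4% and 33.4%. The split among *ADM* transcripts thus differed between libraries. ADM-201 and ADM-203 each have 185 annotated codons.

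For *VEGFA* the split was steadier. VEGFA-220, a model of 970 bases, made 51.7% and 49.9% of the gene's FPKM. VEGFA-215, annotated as a retained intron, made 24.2% and 26.5%. By bases of coverage their order turned, with 25.1% and 23.5% for VEGFA-220 and 33.2% and 35.4% for VEGFA-215. Together, 6 transcripts annotated as retained introns held 37.1% of the FPKM in each library, and 59.7% and 59.3% of the bases of coverage. Most FPKM of *VEGFC* came from 1 transcript, with 99.4% and 98.9%, and that of *STC2* likewise, with 90.7% and 90.1%.

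The exons of *VEGFA* were then compared by coverage, summed over all transcripts. Coverage is given as a mean for each exon of a transcript, and this mean was spread evenly over that exon. Where a retained-intron model covers exons and introns as a single exon, both received the same value from it. The values are therefore not base-by-base read counts. In this gene, exons 6 and 7 encode the heparin-binding parts, and splicing that keeps or skips them sets how tightly the secreted protein is held by the matrix. By this measure exon 4 came to 415 and 393 reads per base, and exon 5 to 393 and 400. Coverage was far lower over exon 6, at 111 and 96.5, and over exon 7, at 141 and 135. Set against the mean of exons 3 and 4, exon 6 stood at 30.1% and 26.5% and exon 7 at 38.0% and 37.2%. Exon 8, by the same measure, stood at 51.1% and 51.5%. Exon 2, with 52 bases, was also low, at 39.0% and 34.8%. Exon 4, with 77 bases, stood at 112% and 108%, and exon 5, with 30 bases, at 106% and 109.7%. The part of exon length and of the even spreading in these values was not tested. Set against exons 3 and 4 in the same way, the introns lay far lower. They ranged from 0.239% and 0.315%, after exon 1, to 8.66% and 8.94%, after exon 3, and carry the same even spreading.

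**Figure D2:**
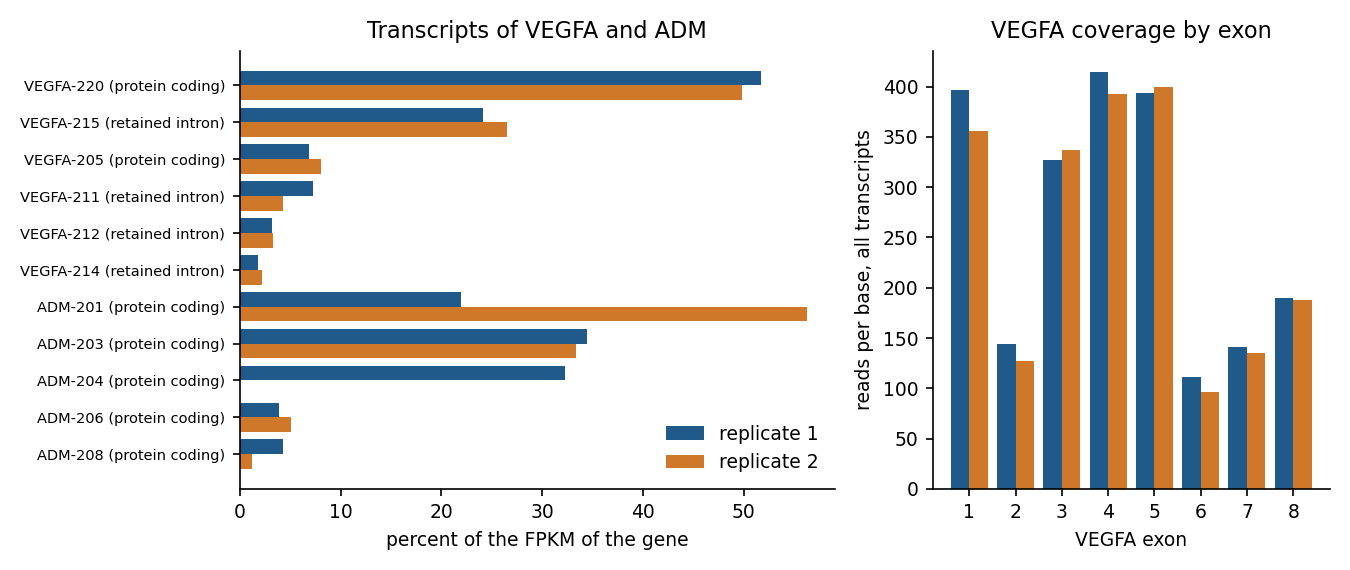
Left, percent of the gene's FPKM in the main transcripts of *VEGFA* and *ADM*, with 1 bar per library and the annotated type in brackets; ADM-201 holds 22.0% in replicate 1 and 56.2% in replicate 2. Right, reads per base over exons 1 to 8 of *VEGFA*, from transcript exon means spread evenly and summed over all transcripts. Exons 6 and 7 lie below exons 3 to 5 in both libraries.

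The receptors, enzymes and other ligands of the same systems were read from lists of 53 genes. Of these, 26 had a mean of 1 FPKM or more, against 23.1% of all genes, and 11 were listed at 0 in both libraries, against 30021 of 58288. In the VEGF system, 3 of 5 genes passed 1 FPKM. The co-receptor genes *NRP1* and *NRP2* led it, with 31.1 and 38.8 FPKM for *NRP1* and 28.4 and 27.6 FPKM for *NRP2*. *FLT4*, the receptor for VEGFC, stood at 4.75 and 4.66 FPKM, while *KDR*, the main receptor for VEGFA, was listed at 0. Ligand genes were thus present where the signalling receptor genes *FLT1* and *KDR* were listed at 0.

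The peptide systems were read in the same way. For adrenomedullin, *PAM*, which amidates the peptide, had 75.2 and 81.1 FPKM. *CALCRL*, its receptor, stood at 0.0915 and 0.0809 FPKM, and *RAMP2*, the partner that gives the receptor its specificity, at 3.17 and 2.25 FPKM. For endothelin, the converting enzyme gene *ECE1* had 52.4 and 49.4 FPKM. The receptor gene *EDNRA* stood at 0.386 and 0.524 FPKM, and *EDNRB* was listed at 0. In the angiopoietin system, 0 of 4 genes reached 1 FPKM. *EPOR* stood at 3.16 and 3.03 FPKM although *EPO* was listed at 0. In the stanniocalcin system, *PAPPA*, a protease that STC2 inhibits, stood at 6.04 and 6.38 FPKM, and *STC1* was listed at 0.

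**Figure D3:**
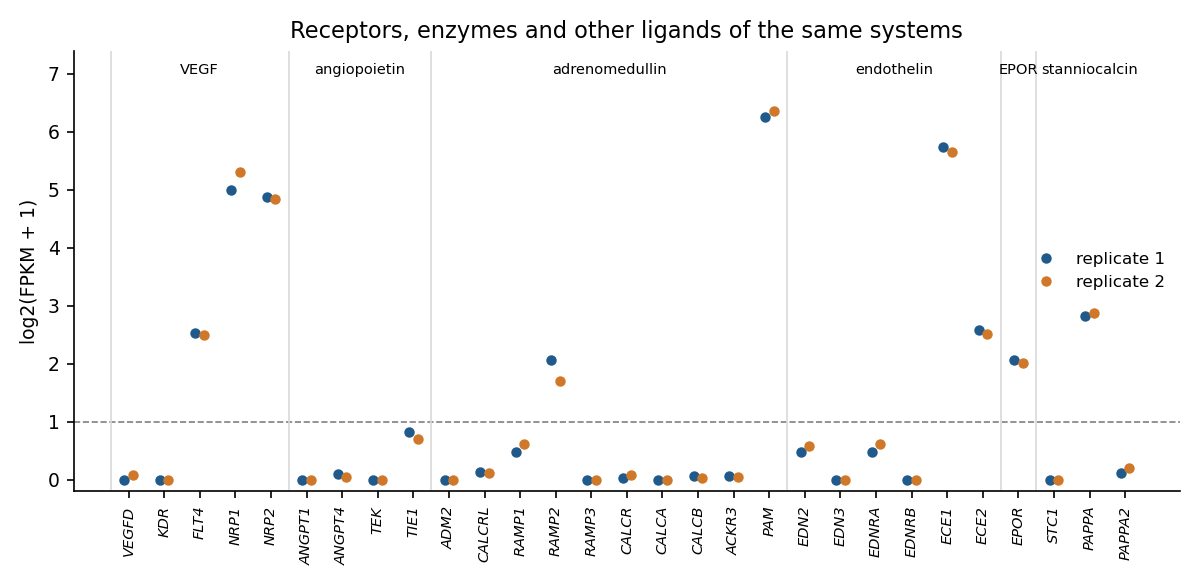
Level of 29 genes of the same systems as log2(FPKM + 1), with 1 point per library; the dashed line marks 1 FPKM. Processing enzymes (*PAM*, *ECE1*) and co-receptors (*NRP1*, *NRP2*) lie highest, and *KDR*, *TEK* and *EDNRB* lie at 0.

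Among 24 other angiogenic and antiangiogenic factors, 17 had a mean of 1 FPKM or more. *CYR61*, a matricellular protein gene, was the highest at 936 and 946 FPKM. *ANGPTL4* stood at 144 and 132 FPKM, and the chemokine gene *CXCL8* at 107 and 123 FPKM. *THBS1*, which encodes an inhibitor of angiogenesis, stood at 139 and 147 FPKM. Each of these was above *VEGFA*. Stimulating and inhibiting factors were both among the abundant ones.

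HIF1α peaks were then placed around the members. Replicate 1 had 1689 peaks and replicate 2 had 16953, and the lists give positions without scores. Overlap with the other list was found for 20.4% of replicate 1 peaks and 1.96% of replicate 2 peaks. The lists also differed in where peaks lay: 31.6% of replicate 1 peaks and 79.5% of replicate 2 peaks had at least 50% of their bases in annotated exons. Each replicate is therefore described separately.

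A peak within 1 kb of an annotated start site was found in replicate 1 for 2 of the 10 members, *VEGFA* and *VEGFB*, against 2.50% of 55859 genes. In replicate 2 there were 3, *VEGFA*, *VEGFB* and *ADM*, against 9.72%. Both replicates had one for 2 members, against 0.779%. Among genes with a mean of 1 FPKM or more, which include 7 members, the shares were 8.14%, 20.8% and 2.68%. The counts in replicate 2 and in both fell to 1, *VEGFA*, with a window of 500 bp or with the outermost start site alone. Of all genes, 7.98% and 0.636% had such peaks with 500 bp, and 6.58% and 0.482% from the outermost start site. The replicate 2 peaks of *VEGFB* and *ADM* lay 856 and 991 bp from a start site, and that of *VEGFB* was in UTR sequence at the other end of the gene. At none of these promoters did the peaks of the replicates overlap. In replicate 2, no member kept a promoter peak when peaks with at least 50% of their bases in exons were left out, an alternative added after the data were seen. That step left out 79.5% of all replicate 2 peaks, and the share of all genes that kept one was not taken.

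A wider search took peaks in the gene or within 50 kb of a start site. It found peaks in replicate 1 for 4 members, *VEGFA*, *VEGFB*, *ADM* and *STC2*, against 11.3% of genes, and in replicate 2 for 8 members, against 50.6%. These 4 members had peaks in both replicates, against 8.76% of genes. Without replicate 2 the count of members with any such peak fell from 8 to 4. *VEGFC*, among the more abundant members, had none, and its nearest peaks were 664 kb and 398 kb away. *ANGPT2* had none in either list, with the nearest at 145 kb in each.

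**Figure D4:**
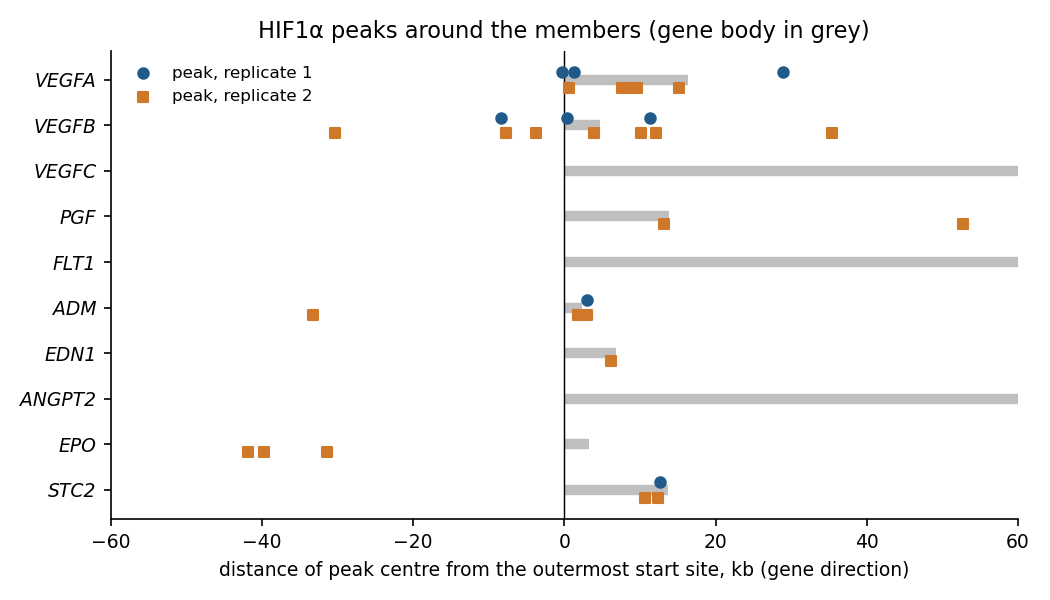
Distance of each peak's centre from the outermost start site of the member, in kb along the gene's direction, with circles for replicate 1, squares for replicate 2 and grey bars for gene bodies. Replicate 1 peaks lie near *VEGFA*, *VEGFB*, *ADM* and *STC2* only, and the 2 replicate 2 peaks at *FLT1*, at 105 and 201 kb, lie beyond the axis.

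At *VEGFA*, replicate 1 had 3 peaks. The first (chr6:43737428-43737727) lay 194 bp upstream of the first start site and held 4 cores. The second (chr6:43739112-43739345) lay wholly in an intron, 128 bp from a start site, and held 6 cores, of which 5 were within 100 bp of its centre. The third, whose sequence is given above, lay 20.7 kb from the nearest *VEGFA* start site and had a core 3 bp from its centre. The start site nearest to it was that of another annotated gene without a symbol (ENSG00000283573), 3949 bp away, so its assignment to *VEGFA* is by distance alone. None of the 3 had a base in an exon. Replicate 2 had 5 peaks, all in the gene and all wholly in annotated exons. One of them (chr6:43737965-43739046) lay in the gap between the first 2 replicate 1 peaks, over the first exon, without touching either. Exons here are those of any annotated transcript, models with retained introns included.

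At *VEGFB*, the replicate 1 peak (chr11:64002264-64002595) began 208 bp inside the gene and held 2 cores, as the sequence above shows. The replicate 2 peak in this gene (chr11:64005864-64006134) lay at the other end, wholly in UTR sequence, 856 bp from the nearest start site, and held 0 cores. Other peaks near *VEGFB* were closer to the start sites of neighbours. In replicate 1 these were *TRPT1* and *PPP1R14B*, and in replicate 2 *FERMT3*, *NUDT22*, *DNAJC4*, *PPP1R14B* and *GPR137*.

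At *ADM*, both replicates had a peak in the same place, past the 3′ end of the gene. It was 623 bp wide in replicate 1 (chr11:10329330-10329952) and 350 bp in replicate 2 (chr11:10329472-10329821), and the latter lay entirely inside the former. The replicate 1 peak lay 2406 bp from the nearest *ADM* start site and covered a start site of *AMPD3*, an AMP deaminase gene, so assigning it to *ADM* is a choice of distance. It held 6 cores, and the stretch shown above has 5 of them. A further replicate 2 peak (chr11:10327915-10328864) lay in the exons of *ADM*, 991 bp from a start site, just inside the 1 kb window.

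*STC2* was the other member with overlapping peaks, near its 3′ end. The replicate 1 peak (chr5:172742669-172742931) shared 260 bp with a replicate 2 peak (chr5:172742672-172743354). Both lay wholly in UTR sequence, 8358 and 7935 bp from the nearest start site, and each held 1 core, the one printed above. A second replicate 2 peak lay in exons of the gene and held 5 cores.

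*EDN1*, *PGF*, *FLT1* and *EPO* had peaks in replicate 2 alone. *EDN1* had 1 (chr6:12296226-12297201), of which 92.6% was UTR and which held 0 cores. *PGF* had 1 in the gene (chr14:75408778-75409417), of which 99.1% was UTR, and it held 3 cores. *FLT1*, listed at 0 in RNA, had 1 in the gene (chr13:28963969-28964195), wholly in coding sequence and with 0 cores. *EPO* had 3 within 50 kb and none in the gene, and their nearest start sites were those of *GNB2* and *GIGYF1*.

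In all, 8 replicate 1 peaks and 25 replicate 2 peaks were placed at or near members. No more than 100 bp from the centre, a core was found in 8 of 8 in replicate 1, against 86.2% of all replicate 1 peaks searched, and in 9 of 25 in replicate 2, against 27.1%. The count moved with the window. Over whole peaks, a core was found in 8 of 8, against 89.3% of all, and in 16 of 25, against 48.8%. The median width in replicates 1 and 2 was 316 and 611 bp at the members, and 325 and 404 bp over all peaks. Within 50 bp of the centre a core was found in 4 of 8 and 3 of 25. The share over all peaks for that window is not given here, so these counts have no background. Of the same peaks, 3 of 8 and 23 of 25 had at least 50% of their bases in exons. The members' peaks thus differed between replicates as the whole lists did. The part of exon content in the difference was not tested.

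**Figure D5:**
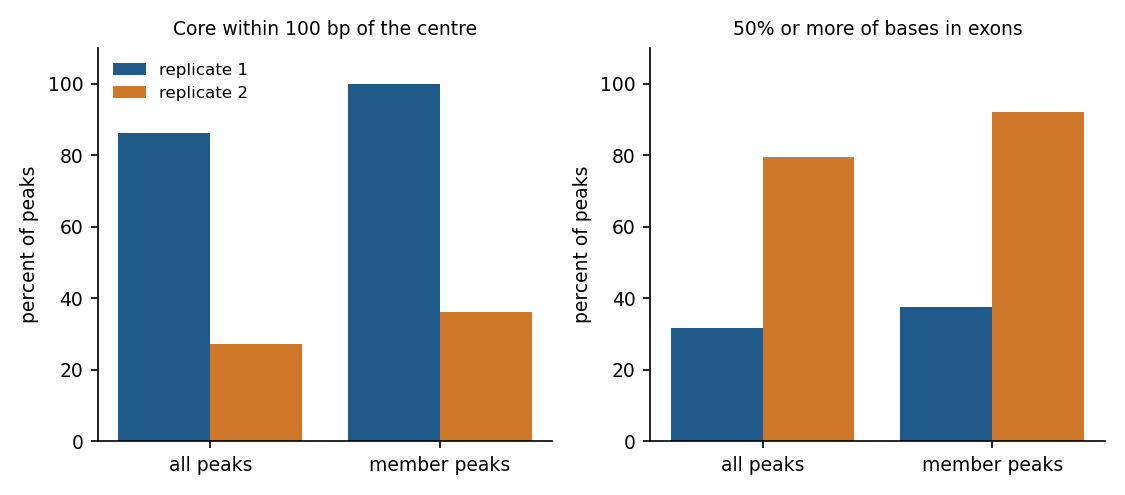
Percent of peaks with a core within 100 bp of the centre (left) and with at least 50% of their bases in exons (right), for all peaks and for peaks at or near members, by replicate. The core is found in 86.2% of all replicate 1 peaks and 27.1% of all replicate 2 peaks.

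Cores were also present at promoters that had no peak. RefSeq promoter windows of 300 bases (GRCh38.p14) were matched for 8 members, all but *VEGFA* and *ANGPT2*, with 11 windows in total. A core was present in 10 of the 11, against 48.4% of all such windows. The windows are not all separate, since those of *PGF* overlap and hold the same core, which is counted in each. The lines below show the core nearest to the start site among those upstream of it, for 5 of the expressed members. They run 5′ to 3′ on the strand of the gene. For *EDN1* the most upstream of its 3 windows is shown, with distance from the start of that window's transcript. Its middle window held no core, and its most downstream window held CACGT 123 bases before its start. Which *EDN1* window belongs to the transcript measured in RNA was not checked. *VEGFC*, *EDN1*, *STC2*, *PGF*, *FLT1* and *EPO* each carried a core in a window and had no promoter peak in either replicate. A match says only that these letters are in the window.
VEGFB promoter, GRCh38.p14 chr11:64234503-64234547, plus strand, core 61 bases before the start: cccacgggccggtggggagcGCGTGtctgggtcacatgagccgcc
VEGFC promoter, chr4:176792957-176793001, minus strand, core 59 bases before the start: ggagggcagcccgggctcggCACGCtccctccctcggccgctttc
ADM promoter, chr11:10304952-10304996, plus strand, core 101 bases before the start: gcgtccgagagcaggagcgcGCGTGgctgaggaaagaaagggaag
EDN1 promoter, chr6:12287952-12287996, plus strand, core 47 bases before the start: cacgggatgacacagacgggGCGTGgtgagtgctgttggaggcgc
STC2 promoter, chr5:173328612-173328656, minus strand, core 222 bases before the start: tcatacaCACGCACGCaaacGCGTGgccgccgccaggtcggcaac

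Promoter peaks were also counted at the other genes of these systems. Of the 53 listed genes, 2 had one in replicate 1, 11 in replicate 2 and 1 in both, against 2.50%, 9.72% and 0.779% of all genes. The gene with both was *ANGPTL4*, an inhibitor of lipoprotein lipase that also acts on vessels, with peaks 23 and 129 bp from a start site. The other replicate 1 promoter peak was at *ECE1*, 86 bp from a start site. *CXCL8*, among the more highly expressed factors, had no promoter peak in either replicate.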

How the data were processed

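HIF1α ChIP-seq peaks and RNA-seq of FG-4592-treated HK2 cells were used, 2 replicates each. The authors aligned ChIP-seq reads to hg19 with Bowtie2 and called peaks with MACS2 in each replicate. Thresholds and depth are not given in the sources used here. For RNA-seq, the authors mapped reads with HISAT2 and deposited, for every transcript, coverage, FPKM and TPM from StringTie 1.3.3 on GENCODE 27. The methods name hg19 for this mapping too, whereas the tables carry GRCh38 positions. Counts were not used, and depth is known only as coverage times length, 4442 and 4202 Mb. Some genes carry the symbol under another attribute (*FLT1* in both libraries, *EPO* in replicate 1), and both attributes were read. FPKM was summed over transcripts. Peaks were compared with GENCODE 44 on GRCh37 and joined to expression by Ensembl identifier, without converting coordinates. Transcript types came from the same annotation. Peaks on the mitochondrial chromosome and on contigs outside the reference were left out of the core search. Python 3.11.15 with pandas 2.3.3 and pysam 0.24.0 was used, and the peak and core functions were tested on simulated data. No test was made, since all samples belong to 1 condition. Named genes were the members, lists of their pathways and cell type markers, genes nearest to member peaks and main transcripts. Members and lists were chosen with earlier results of these data known. The values of 1 listed gene are not reported here. A planned comparison of VEGF protein sequences was not run.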

Additional observations from a re-analysis of the deposited data

How the results depend on the processing

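No paired analysis was possible because no result comes from a test. The count of members at 1 FPKM or more was 7, and 6 over the union of exons, where *PGF* fell below 1, as it also did by its largest transcript (0.710 FPKM). A level of 5 FPKM was reached by 5 members, and the share of all genes at that level was not taken. The median level of the members was 8.65 FPKM, and came to 5.82 with the largest transcript, 23.9 in TPM and 7.03 over the union of exons (added after seeing the data). The median share of the largest transcript over the 7 expressed members was 66.9% by FPKM and 75.4% by bases of coverage. Promoter counts moved with the window. With 500 bp, 1 member had a peak in replicate 2 and 1 in both replicates, against 7.98% and 0.636% of all genes. With 10 kb, the counts were 4, 6 and 4 for replicate 1, replicate 2 and both, against 4.41%, 24.6% and 2.40% of all genes. From the outermost start site alone they were 1 in replicate 2 and 1 in both, against 6.58% and 0.482% of all genes. Leaving out peaks lying mostly in exons (added after seeing the data) gave 0 in replicate 2. Asking the peaks of the replicates to overlap, by 1 bp or by 50% of the shorter, gave 0 in both cases. For this step and the one before it, no share over all genes was taken. Leaving out either replicate gave 4 to 8 members with a peak within 50 kb. The share of member peaks with a core was 51.5% over both replicates, 36% to 100% when either was left out, and 21.2% within 50 bp of the centre. For the 50 bp window the share over all peaks is not given here. The causes of these differences were not tested. With 2 libraries per assay the SD is imprecise, and peaks without scores allowed no stricter threshold.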
